A study of Mus musculus with 57 samples.

Results

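The genes described here are 10 that mark Kupffer cells, the resident macrophages of the liver: Clec4f, Vsig4, Marco, Cd5l, Timd4, Siglec1, Cd163, Adgre1, Csf1r and Folr2. They were chosen by symbol, and each of the 10 matched 1 of the 54307 Ensembl mouse gene IDs of the deposited table. In this order the IDs are ENSMUSG00000014542.4, ENSMUSG00000044206.4, ENSMUSG00000026390.8, ENSMUSG00000015854.8, ENSMUSG00000055546.7, ENSMUSG00000027322.12, ENSMUSG00000008845.10, ENSMUSG00000004730.16, ENSMUSG00000024621.17 and ENSMUSG00000032725.11. They were followed in bulk RNA-seq of 57 livers from male wild-type C57BL/6JJcl mice. The series was made to test a method that estimates cell type proportions from whole-tissue expression. All mice were 6 weeks old, were acclimatised for 1 week and fasted for 12 h before dosing, and were killed 24 h after it, and the liver was perfused before a piece of its left lateral lobe was taken.

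The 40 treated mice received 1 of 7 hepatotoxic agents. By gavage, 4 mice received alpha-naphthyl isothiocyanate (ANIT), which injures bile ducts, 6 received acetaminophen (APAP), 7 received 4,4'-methylene dianiline (MDA) and 5 received thioacetamide (TAA). Intraperitoneally, 7 mice received carbon tetrachloride (CCl4) and 4 received galactosamine (GAL). Intravenously, 7 mice received the plant lectin concanavalin A (ConA), which activates T cells. The 17 control mice received only a vehicle: 13 received 0.5% methylcellulose by gavage, 2 received saline intraperitoneally and 2 received saline intravenously. The labels also name corn oil among the vehicles without saying which compounds it carried. No control mouse received it, so for such a compound its effect and that of corn oil cannot be told apart. All controls of 1 route serve every compound of that route, so the comparisons share control mice.

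Kupffer cells line the liver sinusoids, where they clear bacteria, debris and ageing red blood cells from portal blood. They arise largely before birth and renew themselves locally. When they die, monocytes from the blood can enter the liver and acquire the resident markers over days, with Timd4 among the late ones. The receptor Csf1r keeps these macrophages alive, and signals of stellate and endothelial cells, acting through transcription factors such as Nr1h3, Spic, Id3 and Spi1 (PU.1), maintain their identity. In bulk liver, fewer Kupffer cells and less RNA of a gene per cell cannot be told apart.

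The promoters are shown because these genes are co-expressed in 1 cell type. Of the 10 genes, 7 had an entry among the RefSeq promoters (build GRCm38.p6, from 250 bases before to 50 bases after the start site). The promoters of the lectin gene Clec4f (chr6:83656067-83656366, minus strand), the scavenger receptor gene Marco (chr1:120504975-120505274, minus strand), the complement receptor gene Vsig4 (chrX:96293389-96293688, minus strand) and Cd5l (chr3:87357631-87357930, plus strand) are given 5′ to 3′. Capitals mark GAGGAA, the core bound by PU.1, on either strand.
Clec4f: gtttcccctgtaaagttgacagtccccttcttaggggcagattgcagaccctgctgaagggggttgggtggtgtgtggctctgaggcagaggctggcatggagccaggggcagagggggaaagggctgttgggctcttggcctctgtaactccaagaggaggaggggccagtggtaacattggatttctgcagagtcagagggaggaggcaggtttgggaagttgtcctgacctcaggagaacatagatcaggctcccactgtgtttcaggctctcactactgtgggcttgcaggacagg
Marco: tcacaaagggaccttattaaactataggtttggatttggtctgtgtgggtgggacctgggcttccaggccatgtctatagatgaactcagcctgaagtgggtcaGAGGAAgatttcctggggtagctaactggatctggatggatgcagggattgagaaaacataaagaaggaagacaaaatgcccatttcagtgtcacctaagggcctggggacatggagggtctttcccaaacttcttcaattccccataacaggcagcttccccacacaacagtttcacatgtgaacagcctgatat
Vsig4: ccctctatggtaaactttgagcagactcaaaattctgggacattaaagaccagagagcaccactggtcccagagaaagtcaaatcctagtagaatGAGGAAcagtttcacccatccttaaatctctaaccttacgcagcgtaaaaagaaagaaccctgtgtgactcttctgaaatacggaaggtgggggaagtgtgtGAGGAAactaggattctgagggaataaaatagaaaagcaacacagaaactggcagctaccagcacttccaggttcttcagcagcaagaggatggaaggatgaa
Cd5l: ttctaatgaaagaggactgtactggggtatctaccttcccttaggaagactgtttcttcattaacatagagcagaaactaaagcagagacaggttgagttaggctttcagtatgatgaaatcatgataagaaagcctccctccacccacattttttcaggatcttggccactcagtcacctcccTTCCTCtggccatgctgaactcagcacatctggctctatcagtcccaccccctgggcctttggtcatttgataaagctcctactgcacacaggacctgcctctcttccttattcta

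GAGGAA was present in 3 of the 7 genes, 2 times in Vsig4 and once each in Marco and Cd5l, and in 28.3% of the 32851 promoters of the same length. In Vsig4 the matches began 155 and 53 bases before the start site, in Marco 146 bases before it and in Cd5l, on the opposite strand, 66 bases before it. Of the other motifs searched on both strands, the nuclear receptor half-site AGGTCA was found in Clec4f and Timd4 (16.3% of all promoters) and the MAF half-site TGCTGAC in Timd4 (4.67%). The RBPJ motif TGGGAA was found in Clec4f and Marco (25.6%), and the E-box CACGTG in 0 of the 7 (7.15%). These matches describe the letters only.

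The libraries held 13826300 to 35075800 estimated counts (median 21532100), and mitochondrial transcripts made up 5.11% to 39.3% of them. Mice of 1 group correlated across genes with a Pearson's r of 0.848 to 0.966, and 0 pairs of libraries held identical values. Hepatocyte genes (5 of 6 listed symbols were found) summed to at least 16270.9 CPM in every liver. Levels are given as CPM, estimated counts scaled by edgeR's TMM method to a common library total. These values look corrected for transcript length, so that levels can be set side by side between genes. With 2 mice in each saline group, the comparisons by route for CCl4, GAL and ConA rest on few controls, and each compound was therefore also compared with all 17 vehicle mice.

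In untreated liver, all 10 genes were measured in every vehicle mouse. Clec4f, a C-type lectin largely restricted to Kupffer cells in the mouse, was the highest at 137 ± 35.0 CPM (SD, n = 17) and made up 33.8% of the members' summed level. Cd5l, a secreted protein of tissue macrophages also called AIM, stood at 94.9 ± 34.6 CPM and made up 23.5%. The phosphatidylserine receptor gene Timd4 (5.49 ± 1.85 CPM), the haemoglobin-haptoglobin receptor gene Cd163 (5.92 ± 2.25 CPM) and the sialic acid-binding lectin gene Siglec1 (9.23 ± 3.69 CPM) were the lowest.

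The vehicle mice did not form 1 level. The labels number the mice within each group, and the 4 gavage controls numbered 1 to 4 had less of these genes than the 9 with higher numbers. What the numbers stand for is not given in the sources used here. Marco, a scavenger receptor for bacteria, stood at 3.08, 4.17, 3.93 and 3.63 CPM in mice 1 to 4 and at 11.4 to 23.4 CPM (median 21.5) in the other 9. The 2 sets were separate. Cd5l stood at 39.9, 37.6, 48.9 and 39.5 CPM against 94.3 to 148 CPM (median 118), and Siglec1 at 3.33, 3.61, 4.16 and 3.69 CPM against 8.47 to 14.5 CPM (median 12.6). Neither gene overlapped between the sets.

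With edgeR's quasi-likelihood test and a Benjamini-Hochberg adjusted p under 0.05 over all genes tested, 7 of the 10 were lower in mice 1 to 4. Of all 13764 genes tested, 1.73% were lower by the same rule. This division of the vehicle mice is part of the choice made with earlier results known, and its recurrence here is no independent support. The log2 differences were -2.39 ± 0.22 (SE) for Marco, -1.64 ± 0.18 for Siglec1, -1.49 ± 0.14 for Cd5l and -1.24 ± 0.17 for Timd4. Csf1r (-1.03 ± 0.20), Clec4f (-0.76 ± 0.15) and the folate receptor gene Folr2 (-0.59 ± 0.13) completed the 7. Vsig4 (-0.73, adjusted p = 0.103), Cd163 (-0.82, 0.0854) and Adgre1 (-1.02, 0.0868) did not pass. They did so in DESeq2, which called all 10, but its share of all genes called is not given here. Leaving out vehicle mouse 2 or mouse 4 reduced the edgeR count to 4 (Clec4f, Csf1r and Folr2 were lost). Leaving out mouse 1 reduced it to 5 (without Clec4f and Folr2). Leaving out the 4 mice numbered above 12, an alternative chosen after the data were seen, raised it to 9. The share of all genes called in these alternatives is not given here either.

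**Figure D1:**
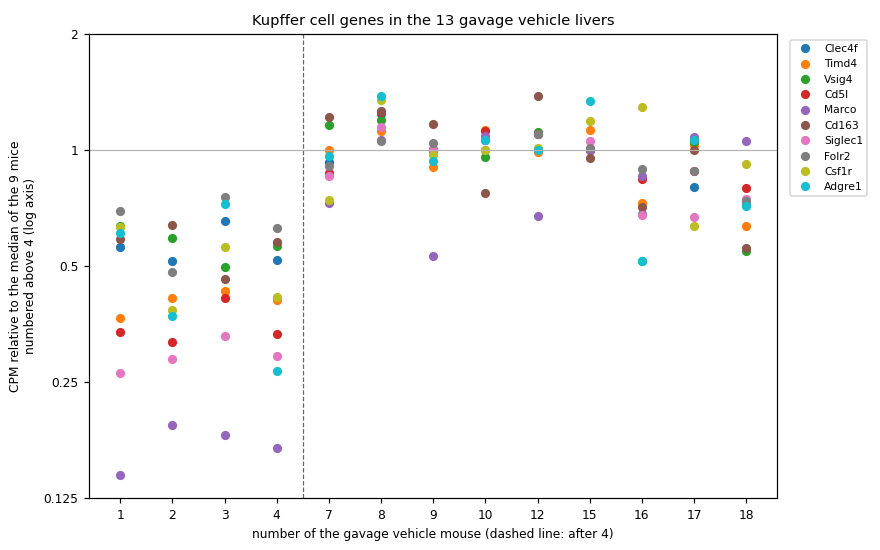
Level of each of the 10 genes in the 13 gavage vehicle livers, relative to the median of the 9 mice numbered above 4 (vertical axis, log scale), by mouse number. Marco, Cd5l and Siglec1 of mice 1 to 4 lie below every other mouse, with Marco lowest at 3.08 to 4.17 CPM.

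Other transcripts moved along the same division. Of 15 genes of macrophages in general, 12 were lower in vehicle mice 1 to 4 and 0 higher, led by the signalling adaptor gene Tyrobp (-1.30 ± 0.13), the allograft inflammatory factor gene Aif1 (-1.55 ± 0.20) and the complement gene C1qc (-1.01 ± 0.15). Their summed level was 335 to 443 CPM against 657 to 926 CPM. The monocyte list summed to 10.2 to 14.9 CPM against 19.3 to 62.4 CPM, with Plac8 and Ly6c2 lower among 5 genes tested. Of 6 interferon-stimulated genes Isg15 (-1.16 ± 0.23) and Irf7 (-1.24 ± 0.20) were lower, and the list summed to 66.7 to 85.9 CPM against 75.4 to 196 CPM. The sinusoidal endothelial list (0 of 7 called, 150 to 167 CPM against 134 to 228 CPM) overlapped. Libraries 1 to 4 also had 15637 to 16424 genes with an estimated count of at least 1, against 16725 to 17748, and a median mitochondrial share of 19.1% against 13.5%. The part of these differences in the Kupffer cell result was not tested. When libraries were scaled by their totals, without TMM, the median log2 difference of all genes moved by -0.31, calls over all genes went from 83 higher and 238 lower to 20 and 746, and all 10 members were called lower.

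Between the vehicles themselves no member differed. Intraperitoneal saline against gavage called 0 of the 10 members, and 0.0131% of all genes were called. Intravenous saline against gavage also called 0 of the 10, with 0.0263% of all genes called. In both comparisons, edgeR and DESeq2 alike found 0 members, and at an unadjusted p under 0.05 the number was also 0. With 2 saline mice each these fits have wide errors: the SE was 0.71 for Marco and 0.51 for Siglec1 in the intraperitoneal comparison. All 4 saline mice carry the numbers 7 and 8, and Marco in them was 14.5, 10.8, 14.9 and 14.8 CPM.

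Across the compounds the 10 genes did not move as 1 unit. ConA lowered all 10. Marco rose with every one of the other 6 compounds, while Clec4f fell with 5 of these 6, the exception being GAL. With no mouse left out, Cd163 rose with ANIT, APAP and MDA against gavage vehicle, and fell with CCl4 only when all vehicle mice were used. Folr2 fell with ANIT, MDA, TAA and CCl4. Against their route vehicles, the 7 compounds gave the following counts of members called, each read against the share of all genes called in that direction.

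ANIT raised 2 of the 10 (14% of all genes were called higher) and lowered 5 (14.2% lower). APAP raised 2 (17.3%) and lowered 1 (14.6%). MDA raised 2 (17.4%) and lowered 5 (16.4%). TAA raised 1 (26.4%) and lowered 4 (24%). The share of members lowered was above the background share in ANIT and MDA, not far from it in TAA, and below it in APAP. Against vehicle mice of the same numbers (1 to 4), ANIT and MDA each lowered 1 of the 10, Folr2, and raised 2, Marco and Cd163. For the injected agents, CCl4 raised 1 (18%) and lowered 4 (15.6%), and GAL raised 2 (12.8%) and lowered 1 (15.7%). ConA raised 0 (16.8%) and lowered 10 (17.3%). Without ANIT mouse 1, 2 or 3 the ANIT total of 7 became 3. Without intraperitoneal saline mouse 7 or 8 the CCl4 total of 5 became 1 or 2 and the GAL total of 3 became 1, in fits that leave 1 control mouse, which is assumed to vary like the treated mice. In these fits the log2 fold change of Clec4f with CCl4 was -1.28 and -1.31, beside -1.29 with both controls.

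In several comparisons the choice of scaling mattered. With library totals in place of TMM factors, calls over all genes against the route vehicle went from 1981 higher and 2435 lower to 5515 and 844 for GAL, and from 2759 and 2393 to 4565 and 1100 for CCl4. They went from 2407 and 2029 to 2937 and 1113 for APAP, from 1965 and 2002 to 822 and 2651 for ANIT, and from 2381 and 2446 to 1101 and 3752 for ConA. The median of all genes moved by 0.76, 0.43, 0.16, -0.22 and -0.59 on the log2 scale in this order. Between gavage vehicle mice 1 to 4 and above 4 the median moved by -0.31, and all 4 ANIT mice are numbered 1 to 4. The part of the number range in the ANIT shift was not tested. All fold changes given here are relative to the TMM scaling.

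The same comparisons with all 17 vehicle mice gave close counts for the gavage compounds, whose controls are mostly the same mice. ANIT raised 1 (13.5% of all genes) and lowered 5 (14.5%). APAP raised 2 (18.1%) and lowered 2 (15.3%). MDA raised 2 (17.2%) and lowered 6 (17.1%), and TAA raised 1 (25.2%) and lowered 5 (24.5%). CCl4 gained the most calls: 1 was higher (26.2%) and 7 were lower (27.2%), with Siglec1, Cd163 and Adgre1 added. GAL raised 3 (25.1%) and lowered 0 (27.5%), and ConA raised 0 (34.3%) and lowered 10 (33.7%). Over the 10 members the median log2 fold change was -0.82 in ANIT livers, -0.44 in APAP, -0.69 in MDA, -0.64 in TAA, -0.95 in CCl4, 0.12 in GAL and -3.32 in ConA. The corresponding medians of all genes tested lay near 0, from -0.03 for ANIT to 0.06 for APAP. TMM scaling places most genes there, so they are no separate result. With library totals they ran from -0.61 for ConA to 0.84 for GAL. Against vehicle mice of the same numbers the direction turned in part. Within mice 1 to 4, the range that holds all ANIT mice, the members' median was 0.19 in ANIT, 0.17 in APAP, -0.25 in MDA, 0.42 in TAA, -0.86 in CCl4 (1 mouse), 0.84 in GAL and -2.26 in ConA. Among higher numbers it was -0.48 in APAP, -0.45 in MDA, -0.93 in TAA, -1.04 in CCl4, -0.07 in GAL and -3.77 in ConA.

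**Figure D2:**
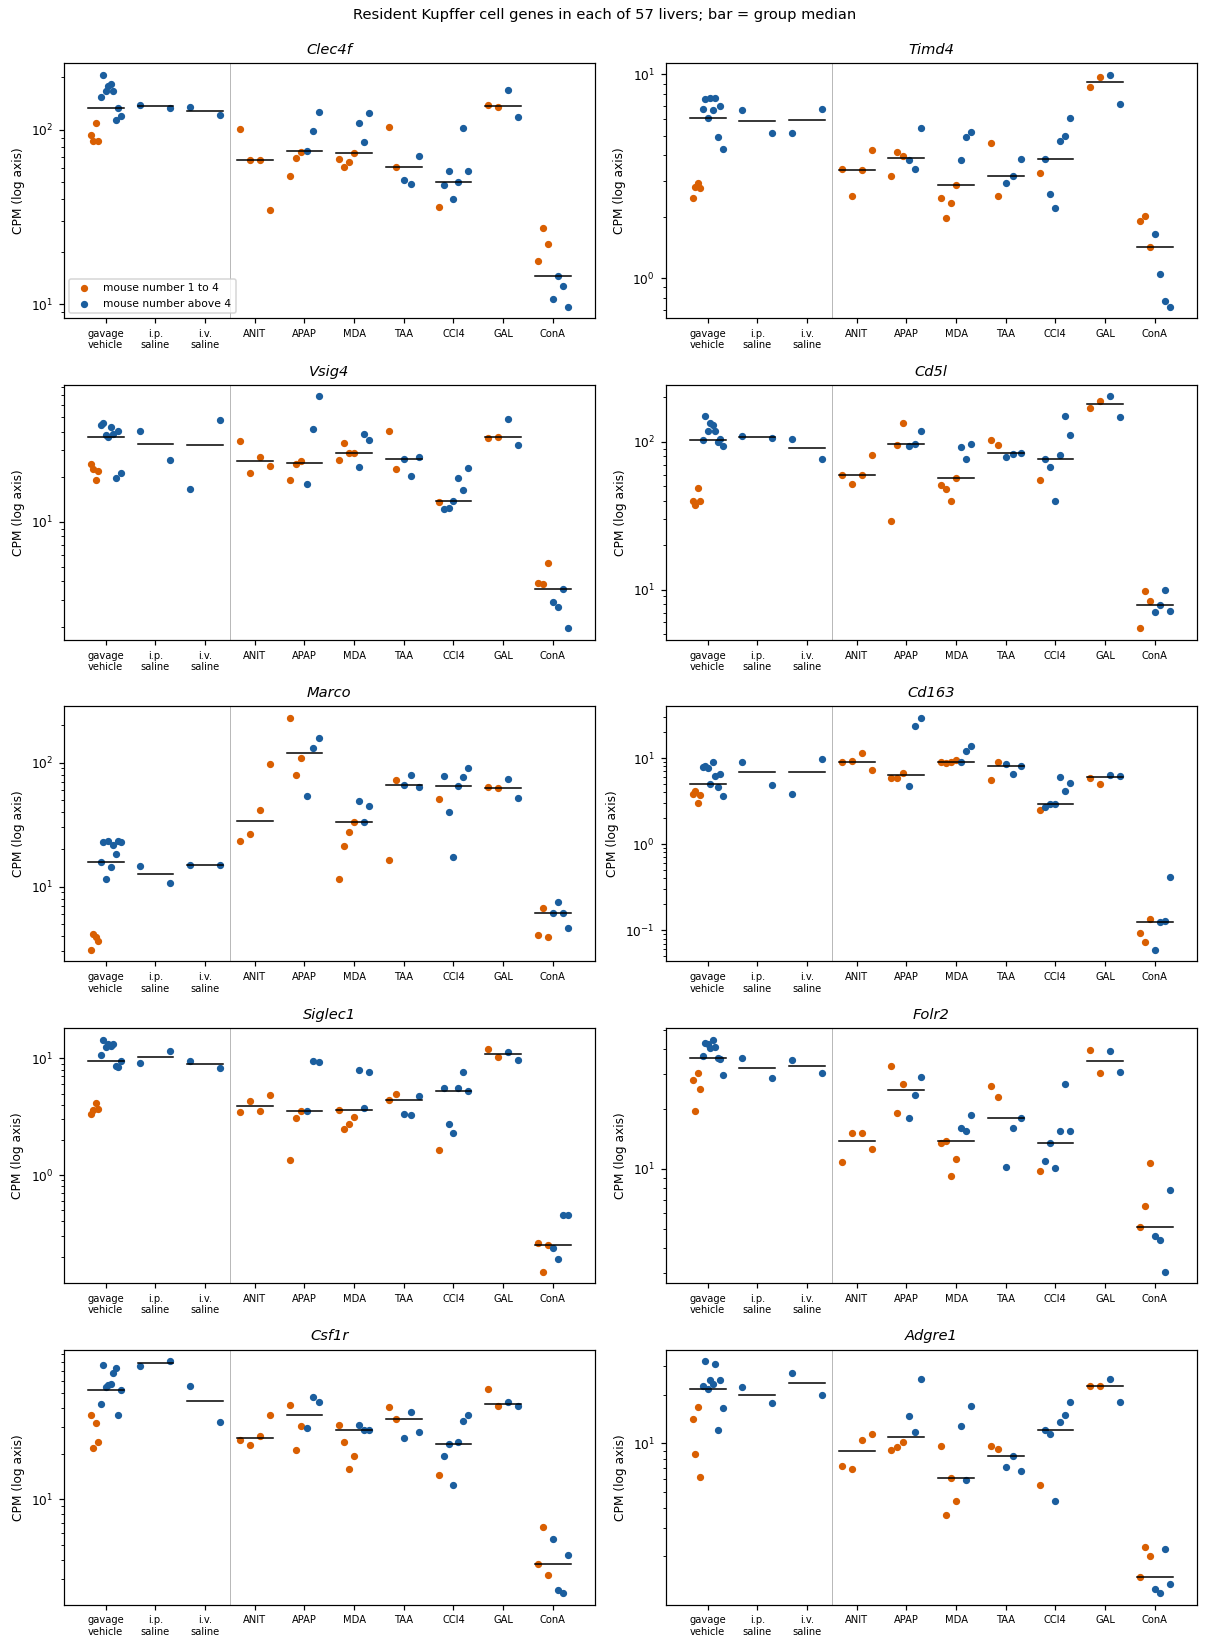
Level in CPM (vertical axes, log scale) of each of the 10 genes in every liver, with the 3 vehicle groups left of the line and the 7 compounds right of it, mice numbered 1 to 4 in orange, higher numbers in blue, and bars at group medians. ConA mice lie below all vehicle mice for every gene but Marco (33.7% of all genes were called lower in this comparison). Marco lies above all vehicle mice in APAP, in GAL and, narrowly, in ANIT (23.4 to 98.3 CPM).

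ConA lowered every member, by the most in Cd163 and Siglec1. Siglec1 stood at 0.149 to 0.458 CPM in the 7 ConA mice (median 0.25) and at 9.58 and 8.29 CPM in the intravenous saline mice. Cd163 stood at 0.059 to 0.419 CPM (median 0.126) against 3.79 and 9.85 CPM. The groups were far apart in both genes. The fit gave a 30.7-fold lower level for Siglec1 (log2 fold change -4.94 ± 0.41, adjusted p = 4.31e-05) and a 41.1-fold lower level for Cd163 (-5.36 ± 0.56, adjusted p = 0.000125). The latter rests on 0.696 to 7.96 estimated counts per ConA mouse, so its size is imprecise.

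Adgre1, which encodes F4/80, an adhesion receptor of mouse macrophages, stood at 1.19 to 2.27 CPM (median 1.5) against 27.3 and 19.9 CPM, a 13.8-fold difference. Cd5l stood at 5.48 to 9.98 CPM (median 7.90) against 105 and 76.2 CPM and was 11.3-fold lower. Csf1r, the receptor of the macrophage growth factors CSF1 and IL34, stood at 2.41 to 6.61 CPM (median 3.73) against 56.0 and 32.4 CPM and was 10.8-fold lower. In none of these genes did ConA and vehicle mice overlap, and the same held against all 17 vehicle mice. The share of all genes that were separate in this way is not given here, and 33.7% were called lower against all vehicle mice.

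Vsig4, which captures complement-coated particles, was 9.32-fold lower, at 1.95 to 5.35 CPM (median 3.58) against 16.7 and 48.0 CPM. Clec4f was 7.72-fold lower, at 9.72 to 27.3 CPM (median 14.5) against 134 and 121 CPM. Folr2 was 5.40-fold lower (3.05 to 10.8 CPM, median 5.08, against 35.3 and 30.2 CPM) and Timd4 4.31-fold lower (0.725 to 2.02 CPM, median 1.42, against 5.14 and 6.78 CPM). These 4 genes too were separate from every vehicle mouse. The smallest difference was that of Marco, 2.65-fold, at 3.91 to 7.44 CPM (median 6.14) against 14.9 and 14.8 CPM. All 10 were called in every alternative run against intravenous saline.

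Among mice with numbers above 4 ConA lowered all 10 members (58.2% of all genes were called), with Marco at -1.57 ± 0.23. Among mice 1 to 4 it lowered 8 (53.6%), the exceptions being Timd4 (-0.51, adjusted p = 0.129) and Marco (0.49, adjusted p = 0.16). The 3 ConA mice of that range had 4.05, 6.66 and 3.91 CPM of Marco, beside 3.08 to 4.17 CPM in vehicle mice 1 to 4. Marco thus had no fall under ConA within the low numbers.

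Beside these falls, several other lists moved in the ConA livers, compared with all 17 vehicle mice. All 6 interferon-stimulated genes rose, with the lowest adjusted p in Rsad2 (7.85 ± 0.35), Isg15 (5.51 ± 0.25) and Ifit1 (5.75 ± 0.39). Of 7 sinusoidal endothelial genes 6 fell, among them Kdr (-4.60 ± 0.16) and Oit3 (-3.46 ± 0.18), while Lyve1 rose (3.21 ± 0.19). The 4 haemoglobin genes of red blood cells rose together and summed to 1302 to 6844 CPM against 41.0 to 328 CPM in vehicle mice. Mitochondrial transcripts made up 14.6% to 39.3% of the ConA libraries and 5.11% to 25.4% of those of the vehicle mice. The part of these changes in the members' fall was not tested. With library totals for scaling all 10 members were also called lower.

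Marco was the only member that rose with 6 of 7 compounds. The level in APAP livers was 230, 79.4, 110, 53.8, 131 and 157 CPM, all above the 3.08 to 23.4 CPM of the gavage vehicle. It was 9.00-fold higher (log2 fold change 3.17 ± 0.42, adjusted p = 1.63e-05). TAA gave 16.5, 73.0, 66.2, 79.3 and 63.9 CPM, of which only mouse 1 lay within the vehicle range, and a difference of 2.06 ± 0.44 (adjusted p = 0.000701). ANIT gave 23.4, 26.6, 41.3 and 98.3 CPM (1.69 ± 0.50, adjusted p = 0.0168), each above the highest vehicle mouse, the lowest by a narrow margin. The rise under MDA was smaller, at 11.4 to 48.8 CPM with a median of 33.2 CPM (1.12 ± 0.39, adjusted p = 0.032), and MDA mice 1 and 2 overlapped with vehicle. The ANIT call was lost without mouse 4 (1.05, adjusted p = 0.167), and the MDA call without mouse 4, 7, 8 or 12 (0.97 to 1.11, adjusted p = 0.0519 to 0.0787).

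The intraperitoneal agents raised it to a like extent. CCl4 livers held 17.5 to 91.4 CPM (median 64.8) against 14.5 and 10.8 CPM in intraperitoneal saline, which is 2.23 ± 0.58 in log2 units (adjusted p = 0.015). GAL livers held 63.3, 62.8, 74.3 and 51.7 CPM, which is 2.25 ± 0.25 (adjusted p = 0.00306). Neither group overlapped with its controls. Without saline mouse 7 or 8 the CCl4 call was lost (2.45 and 2.05, adjusted p = 0.0723 and 0.129).

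Within number ranges the rise of Marco passed with each compound but ConA that had 2 or more treated mice there. Among mice 1 to 4, where vehicle Marco is low, log2 fold changes were 3.66 with ANIT, 5.34 with APAP, 2.65 with MDA, 3.65 with TAA and 4.07 with GAL, and the 1 CCl4 mouse of this range stood at 3.76. Among higher numbers they were 2.69 with APAP, 1.28 with MDA, 2.01 with TAA, 1.76 with CCl4 and 1.83 with GAL. The difference between the ranges was 2.72 ± 0.51 for APAP (adjusted p = 0.126), 1.81 ± 0.50 for TAA (adjusted p = 0.274) and 1.52 ± 0.39 for MDA (adjusted p = 0.549), and none passed. It did pass for APAP when mouse 2 or mouse 6 was left out, and for TAA when mouse 1 was left out.

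Marco and Clec4f moved apart within the same livers. In vehicle mice, log2 Marco minus log2 Clec4f was -3.34 ± 0.68 (SD, n = 17), and the highest was -2.35. It was 0.51 ± 0.84 in APAP, 0.01 ± 0.71 in CCl4, -0.28 ± 1.31 in TAA and -0.64 ± 1.52 in ANIT. In GAL (-1.14 ± 0.04) and ConA (-1.35 ± 0.62) the ratio was also raised, in GAL with the Clec4f level near that of the vehicle mice and in ConA with both genes low. Every treated liver outside MDA and TAA lay above the vehicle range of this ratio. The lowest MDA and TAA values, -2.47 and -2.57, lay within it.

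**Figure D3:**
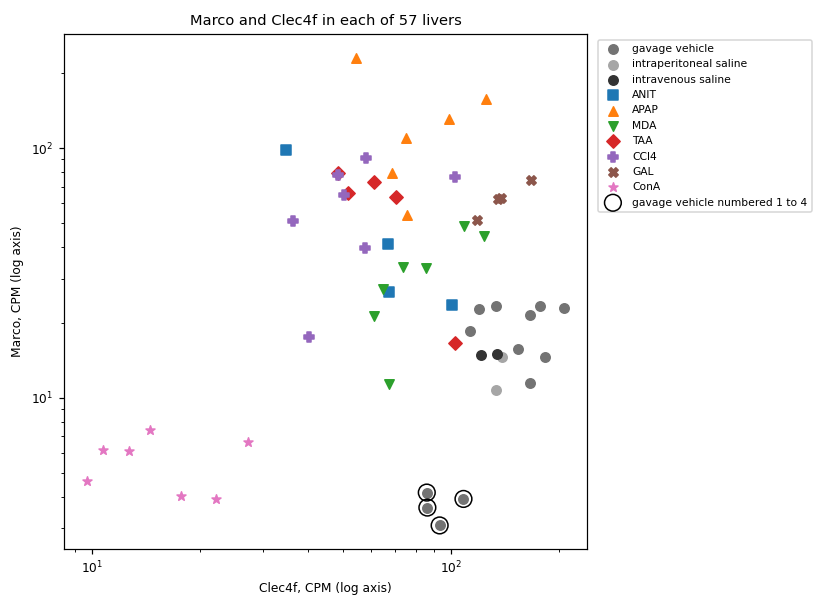
Marco against Clec4f in each of the 57 livers, both in CPM on log axes, with symbols by group and rings around the 4 gavage vehicle mice numbered 1 to 4. APAP livers have the highest mean of Marco (53.8 to 230 CPM, overlapping with other compounds), ConA livers lie lowest for Clec4f (9.72 to 27.3 CPM), and GAL livers combine raised Marco with 118 to 168 CPM of Clec4f.

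Cd163 rose with 3 gavage compounds. In MDA livers it was 8.83 to 13.8 CPM (median 9.09) against 2.99 to 8.92 CPM (median 5.01) in the gavage vehicle, higher by 0.86 ± 0.20 in log2 units (adjusted p = 0.00203). ANIT livers held 8.98, 9.23, 11.5 and 7.33 CPM (0.71 ± 0.25, adjusted p = 0.045). Both groups overlapped with vehicle only at its upper end. The ANIT call was lost without mouse 1, 2 or 3. With APAP the mean rose more (1.19 ± 0.35, adjusted p = 0.0122), but 4 of 6 mice lay at 4.73 to 6.71 CPM, within the vehicle range, and mice 8 and 11 stood at 23.4 and 29.3 CPM. The APAP call was lost without mouse 8 (0.92, adjusted p = 0.0585) or mouse 11 (0.77, adjusted p = 0.0905). TAA (0.47, adjusted p = 0.094) and GAL (-0.31, adjusted p = 0.448) did not pass.

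CCl4 was, besides ConA, the compound for which Cd163 was called lower against all vehicle mice, at 2.51 to 6.11 CPM (median 2.95). The difference from 9.02 and 4.84 CPM in intraperitoneal saline did not pass (-0.88, adjusted p = 0.0999), and that from all vehicle mice did (-0.68 ± 0.24, adjusted p = 0.0198). The first passed without CCl4 mouse 10, and the latter did not without CCl4 mouse 5, 6 or 8. Among the compounds Cd163 thus ran from 0.147 ± 0.123 CPM (ConA, n = 7) through 3.78 ± 1.38 CPM (CCl4, n = 7) to 12.7 ± 10.8 CPM (APAP, n = 6).

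Clec4f fell with all 4 gavage compounds. Vehicle mice held 85.8 to 206 CPM (median 133). ANIT livers held 101, 67.2, 66.8 and 34.8 CPM (log2 fold change -1.04 ± 0.27, adjusted p = 0.00847), and TAA livers 103, 61.0, 51.8, 48.7 and 70.3 CPM (-0.99 ± 0.23, adjusted p = 0.00145). In both groups all mice but mouse 1 lay below the vehicle range. APAP livers held 54.4 to 125.4 CPM (median 75.3) and MDA livers 61.1 to 124 CPM (median 73.6), with log2 fold changes of -0.71 ± 0.21 and -0.71 ± 0.20. Those ranges overlapped with vehicle.

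CCl4 lowered Clec4f to 36.3 to 103 CPM (median 50.4) against 139 and 134 CPM (-1.29 ± 0.30, adjusted p = 0.00913), without overlap, but the call was lost without saline mouse 7 or 8 (-1.28 and -1.31, adjusted p = 0.0578 and 0.0632). GAL livers, at 138, 136, 168 and 118 CPM, stood among the control values (-0.03 ± 0.19). When scaled by library total, Clec4f was instead called higher in GAL, at 0.73. Among low numbers the log2 fold change was -0.49 with ANIT, -0.43 with APAP, -0.49 with MDA and -0.15 with TAA, and none of these passed. Among higher numbers APAP (-0.59 ± 0.18) and TAA (-1.38 ± 0.19) passed and MDA (-0.48, adjusted p = 0.0575) did not. The difference between the ranges did not pass for any of the 3 (0.07 to 1.36), though that of TAA did without mouse 3.

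Timd4, the late marker of long-lived Kupffer cells, was called against its route vehicle with ConA alone by edgeR, while DESeq2 also called MDA (-0.66, adjusted p = 0.0406) and TAA (-0.64, adjusted p = 0.0469) lower. Its level was 2.53 to 4.23 CPM in ANIT, 3.16 to 5.46 in APAP, 1.96 to 5.23 in MDA, 2.53 to 4.58 in TAA and 2.20 to 6.13 in CCl4, all overlapping with the 2.47 to 7.65 CPM of the vehicle mice. Log2 fold changes against the route vehicle were between -0.67 and -0.39, and none of these 5 passed with all mice. TAA passed without mouse 1, and MDA without mouse 8 or 12. Against all vehicle mice, MDA (-0.68 ± 0.24, adjusted p = 0.0317) and TAA (-0.67 ± 0.26, adjusted p = 0.0361) passed. Neither was called within mice 1 to 4, at -0.19 with MDA (adjusted p = 0.614) and 0.40 with TAA (adjusted p = 0.42), where ANIT (0.29) and APAP (0.53) were not called either. Among higher numbers TAA (-0.92 ± 0.18), APAP (-0.58 ± 0.19) and CCl4 (-0.67 ± 0.18) passed and MDA (-0.42, adjusted p = 0.103) did not. In GAL livers Timd4 stood at 8.63, 9.64, 9.95 and 7.15 CPM, above both intraperitoneal controls (6.64 and 5.13 CPM). It was called higher against all vehicle mice (0.63 ± 0.26, adjusted p = 0.044) and not against the 2 route controls (0.51, adjusted p = 0.154). The former call was lost without GAL mouse 4 or 7. The log2 fold change with GAL was 1.72 ± 0.22 among mice 1 to 4 (adjusted p = 0.00285) and 0.42 among higher numbers (adjusted p = 0.115).

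Cd5l rose with GAL, to 169, 189, 203 and 148 CPM against 110 and 106 CPM in intraperitoneal saline, with no overlap (0.65 ± 0.19, adjusted p = 0.048). The call was kept in 3 of 12 alternatives of this comparison, and was lost without either saline mouse and without GAL mouse 4, 7 or 8. Against all vehicle mice (0.84 ± 0.28, adjusted p = 0.015) it was kept in 11 of 11. With the 4 gavage compounds and CCl4, Cd5l had log2 fold changes between -0.58 and 0.03, and none passed. APAP mouse 1, at 28.9 CPM, stood apart from the other 5 at 93.9 to 133 CPM.

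With all mice in the fit, Vsig4 passed the test with CCl4 and ConA alone. CCl4 livers held 12.2 to 22.9 CPM (median 13.8) against 40.4 and 25.8 CPM, a fall of -1.07 ± 0.26 on the log2 scale (adjusted p = 0.0109), and the groups were separate. Without saline mouse 7 the call was lost (-0.73, adjusted p = 0.158). With the other 5 compounds its log2 fold change lay between -0.27 and 0.15. The widest spread was in APAP, where mice 8 and 11 had 41.6 and 68.8 CPM and the other 4 had 17.8 to 25.4 CPM, the same 2 mice that were high in Cd163 and, at 9.56 and 9.32 CPM, in Siglec1.

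Siglec1 and Adgre1 fell with ANIT, MDA and TAA. Siglec1, at 3.33 to 14.5 CPM (median 9.42) in the gavage vehicle, was 3.44, 4.29, 3.55 and 4.88 CPM in ANIT (-1.19 ± 0.40, adjusted p = 0.0344) and 4.40, 4.95, 3.32, 3.29 and 4.75 CPM in TAA (-1.10 ± 0.35, adjusted p = 0.0143). MDA livers held 2.48 to 8.03 CPM (-1.0 ± 0.34, adjusted p = 0.0272). The ANIT and TAA levels lay near the 3.33 to 4.16 CPM of vehicle mice 1 to 4, whereas the MDA mice reached from below these to just under the 8.47 CPM of the lowest vehicle mouse of higher number. Within mice 1 to 4 the log2 fold change of Siglec1 was 0.11 for ANIT, 0.38 for TAA and -0.31 for MDA (adjusted p = 0.377), none of which passed. Among the higher numbers the TAA (-1.51 ± 0.21) and MDA (-0.73 ± 0.23) differences passed. The ANIT call was lost without any 1 of the 4 mice, and the MDA call without mouse 2, 3, 4 or 8. Siglec1 is inducible by interferon, and against all vehicle mice the 6 interferon-stimulated genes fell in part with the same compounds: 6 with ANIT (led by Isg15, -2.32 ± 0.37), 3 with MDA and 2 with TAA, where 1 rose. Their list summed to 25.6 to 41.7 CPM in ANIT, 29.5 to 114 in MDA and 42.1 to 103 in TAA against 66.7 to 213 in vehicle mice. Their part in the values of Siglec1 was not tested.

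Adgre1 was 6.92 to 11.5 CPM in ANIT (-1.13 ± 0.36, adjusted p = 0.0251), 3.63 to 17.0 CPM in MDA (-1.18 ± 0.33, adjusted p = 0.00866) and 6.76 to 9.68 CPM in TAA (-1.20 ± 0.31, adjusted p = 0.00306), against 6.21 to 32.2 CPM (median 21.8) in the gavage vehicle. All 3 groups overlapped with the vehicle mice of low number, and the ANIT call was lost without mouse 1, 2 or 3. In mice 1 to 4 alone Adgre1 was -0.36 with ANIT (adjusted p = 0.505), -0.94 with MDA (adjusted p = 0.164) and -0.23 with TAA (adjusted p = 0.738), so that no call remained there. Among higher numbers MDA (-0.91 ± 0.28) and TAA (-1.59 ± 0.23) passed. APAP had -0.82 for Siglec1 and -0.53 for Adgre1, CCl4 -1.24 and -0.81, and GAL 0.00 and 0.07, and none of these passed against the route vehicle, although Siglec1 with CCl4 did without mouse 11. Against all vehicle mice the CCl4 values passed (-1.10 ± 0.32 and -0.85 ± 0.28).

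Folr2, whose product binds folate on tissue-resident macrophages, fell with ANIT, MDA, TAA and CCl4. Gavage vehicle mice held 19.4 to 44.6 CPM (median 36). ANIT livers held 10.8, 15.2, 15.2 and 12.5 CPM (-1.39 ± 0.20, adjusted p = 6.71e-05) and MDA livers 9.23 to 18.7 CPM (-1.30 ± 0.16, adjusted p = 4.54e-06), both below every vehicle mouse. Within mice 1 to 4 these falls were still called, at -0.97 ± 0.19 for ANIT and -1.12 ± 0.20 for MDA, as was that of MDA among higher numbers (-1.12 ± 0.14). TAA livers held 10.2 to 26.1 CPM (-0.85 ± 0.21, adjusted p = 0.00225). The 2 mice of low number, at 26.1 and 23.0 CPM, stood above the other 3. Within mice 1 to 4 Folr2 with TAA was -0.03 and was not called (adjusted p = 0.944). CCl4 livers held 9.71 to 26.6 CPM against 36 and 28.6 CPM (-1.16 ± 0.32, adjusted p = 0.0205), a call lost without saline mouse 7 (-1.0) or 8 (-1.31), which leaves 1 control. APAP (-0.45, adjusted p = 0.0521) passed only without mouse 1 (-0.58), and GAL (0.04) did not pass.

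Csf1r fell with ANIT, to 22.9 to 35.7 CPM (-0.84 ± 0.30, adjusted p = 0.0438), and with MDA, to 15.8 to 31.1 CPM (-0.92 ± 0.24, adjusted p = 0.00455), against 21.9 to 76.7 CPM (median 52.3), with overlap in both. The ANIT call was lost without mouse 1, 2 or 3. Neither was called within mice 1 to 4, at -0.07 with ANIT (adjusted p = 0.856) and -0.34 with MDA (adjusted p = 0.42), while among higher numbers MDA passed (-0.99 ± 0.25). In CCl4 livers it was 12.5 to 35.7 CPM against 76.0 and 81.2 CPM (-1.78 ± 0.33, adjusted p = 0.0028). GAL also lowered it (-0.88 ± 0.16, adjusted p = 0.0113), at 53.6, 41.3, 43.6 and 41.4 CPM. The 2 intraperitoneal controls lay at the top of the gavage vehicle range, whose highest mouse had 76.7 CPM, and against all vehicle mice the GAL difference was -0.26 and did not pass, nor did that from the route controls without either saline mouse (adjusted p = 0.0585 and 0.0692). APAP (-0.41) and TAA (-0.51) did not pass.

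**Figure D4:**
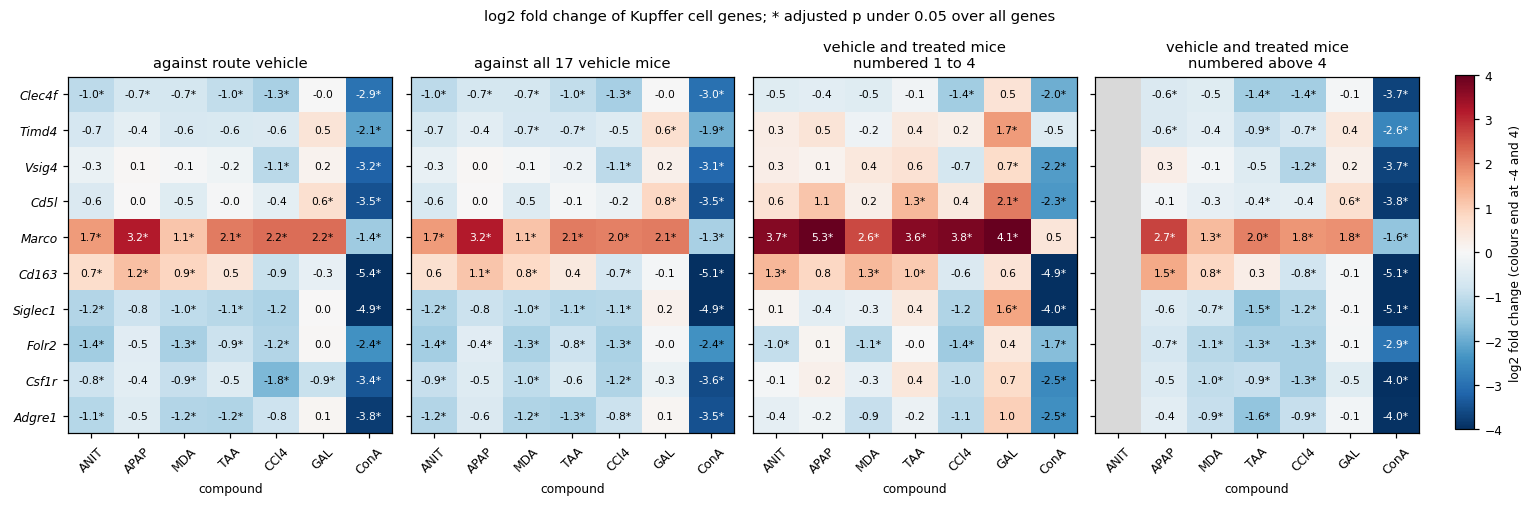
Log2 fold change of each gene (rows) under each compound (columns) against the route vehicle, all 17 vehicle mice, and vehicle mice of the same number range, with asterisks at an adjusted p under 0.05. CCl4 among numbers 1 to 4 rests on 1 treated mouse, so its asterisks there are no test over replicates, ANIT has no mouse above 4, and Marco under ConA is 0.49 among numbers 1 to 4 and -1.57 above 4.

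Within mice 1 to 4 the members called were mostly higher, ConA aside. There, compared with the 4 vehicle mice, ANIT called 3 members (13.7% of all genes), with Marco and Cd163 (1.32 ± 0.20) higher and Folr2 lower. APAP called 1 (6.28%), Marco, and MDA called 3 (10.4%), Marco and Cd163 (1.30 ± 0.16) higher and Folr2 lower. TAA called 3 (19.4%), all higher: Marco, Cd163 (1.04 ± 0.28) and Cd5l (1.29 ± 0.17). GAL called 5 (30.8%), all higher: Marco, Cd5l (2.09 ± 0.18), Timd4 (1.72 ± 0.22), Siglec1 (1.56 ± 0.22) and Vsig4 (0.72 ± 0.16). CCl4 has 1 treated mouse in this range, so its values are given without a test: 3.76 for Marco, -1.39 for Clec4f and -1.43 for Folr2.

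Among numbers above 4, with 13 vehicle mice of 3 routes, falls prevailed in 4 of 5 comparisons beside ConA. TAA called 8 (44.9% of all genes), 7 of them lower, and CCl4 called 9 (49.5%), 8 of them lower. MDA called 6 (20.9%), 4 of them lower, and APAP called 5 (22.1%), 3 of them lower. GAL called 2 (41.8%), Marco and Cd5l, both higher. Cd5l under TAA was thus called in opposite directions, at 1.29 ± 0.17 among low numbers and at -0.42 ± 0.15 among high ones.

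Whether an effect differed between the ranges was tested by the interaction for APAP, MDA and TAA. TAA called 2 members (0.0986% of all genes): Cd5l, with a difference of 1.83 ± 0.21 (adjusted p = 0.0022), and Siglec1, with 2.01 ± 0.29 (adjusted p = 0.0116), both more positive in mice 1 to 4. Siglec1 was lost without TAA mouse 6 (1.92, adjusted p = 0.0671) or mouse 7 (1.88, adjusted p = 0.0577), while without mouse 3 the count was 5. TAA mice themselves were alike in Cd5l, at 103 and 94.5 CPM in mice 1 and 3 and 79.2, 83.2 and 83.7 CPM in the others, while vehicle mice were 37.6 to 48.9 CPM and 94.3 to 148 CPM. APAP called 0 (0%), with 4 members at an unadjusted p under 0.05 and 2 called by DESeq2, and called Cd5l when mouse 1 was left out and Marco when mouse 2 or 6 was. MDA called 0 (0.00665%), with 2 at an unadjusted p under 0.05 and 1 called by DESeq2. The shares of all genes in this paragraph are those of edgeR.

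The levels also differed among the 7 compounds when these were compared with each other without controls. All 10 members passed the F-test (adjusted p between 1.52e-12 and 5.82e-08), as did 77.6% of all genes. In order of mean level, ConA was lowest for all 10 genes and separate from the next group for all but Timd4 and Marco. For Clec4f the order was ConA (16.4 ± 6.41 CPM), CCl4 (56.3 ± 22.0), TAA (67.0 ± 21.9), ANIT (67.4 ± 26.9), APAP (82.9 ± 25.3), MDA (83.6 ± 24.0), all vehicle mice (137 ± 35.0) and GAL (140 ± 20.5). Beyond ConA, each neighbour overlapped with the next in this order, and so it was for the other 9 genes. For Marco the order was ConA (5.57 ± 1.37 CPM), vehicle (14.3 ± 7.29), MDA (31.4 ± 12.9), ANIT (47.4 ± 34.8), TAA (59.8 ± 24.9), CCl4 (59.9 ± 25.5), GAL (63.0 ± 9.26) and APAP (127 ± 62.3). GAL was highest in 7 of the 10 genes: Clec4f, Vsig4, Cd5l, Timd4, Siglec1, Adgre1 and Folr2.

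Further genes of Kupffer cells followed these members in part (all comparisons from here on are with all 17 vehicle mice). The list counts are to be read beside the shares of all genes given above for these comparisons. Of 10 such genes, ConA lowered 9, among them the iron exporter gene Slc40a1 (-5.04), the potassium channel gene Kcna2 (-4.99), the transporter gene Slc16a9 (-2.65) and the receptor gene Gfra2 (-1.92), and only Il18bp did not pass. CCl4 lowered 5, ANIT, MDA and TAA 4 each, and APAP and GAL 2 each. Hpgd, which degrades prostaglandins, fell with all 7 compounds (-0.89 to -1.77), and the complement gene C6 fell with all but TAA. Both are also expressed outside Kupffer cells. Slc40a1 rose with ANIT (0.77) and MDA (0.89), where Cd163, which takes up haemoglobin iron, stood at 0.63 (adjusted p = 0.0809) and 0.79 (adjusted p = 0.00402). The lipid-binding gene Fabp7 rose with APAP (1.55), MDA (0.92) and GAL (1.91).

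Of 12 transcription factors tied to Kupffer cell identity, ConA raised 5 (34.3% of all genes were called higher) and lowered 3 (33.7% lower). These counts lie near the shares of all genes. Nr1h3, which encodes the liver X receptor alpha, fell with ConA (-1.12), GAL (-0.93), CCl4 (-0.85), TAA (-0.68) and APAP (-0.53). Maf fell with ConA (-2.56), TAA (-1.33) and CCl4 (-0.90). Id1 rose with all 7 (1.20 to 3.30), Id3 with 5, and Irf8, which is interferon-inducible, by 4.68 with ConA. Spic, the factor of iron-recycling macrophages, rose with APAP (1.5), TAA (1.20) and GAL (1.18), and under ConA it stood at -0.69 without passing. Several of these factors are also made by hepatocytes or endothelial cells.

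Among 7 signals of the Kupffer cell niche, the growth factor gene Csf1 rose with ConA (2.01), TAA (1.35), APAP (1.24), GAL (1.15) and CCl4 (0.73), 5 compounds of which ConA and CCl4 also lowered the transcript of its receptor Csf1r. Il34, the other Csf1r ligand, rose with CCl4 (1.51) and APAP (1.25). Bmp10 rose with TAA (2.75), APAP (1.43) and CCl4 (0.70), and the Notch ligand gene Dll4 fell with ConA (-0.96) and CCl4 (-0.61). In ANIT and MDA 0 of the 7 passed.

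Genes shared by macrophages in general had a median log2 fold change of -0.74 with ConA, beside -3.32 for the members. Of 15, APAP raised 3 and lowered 0, GAL raised 6 and lowered 0, and TAA raised 3 and lowered 1. ConA raised 3 (Cd68, Mpeg1 and Cybb, named after their values were seen) and lowered 9, led by C1qa (-2.32 ± 0.22), Mertk (-1.95 ± 0.20) and C1qc (-2.23 ± 0.23). CCl4 lowered 3 and raised 1, the lysosomal gene Cd68 (1.56 ± 0.16), and Cd68 also rose with APAP (1.46), TAA (1.53), GAL (0.99) and ConA (1.21). ANIT lowered 4 and MDA 3, and both raised 0. Within livers, Clec4f relative to the mean of these 15 genes was 2.24 ± 0.17 on the log2 scale in vehicle mice (1.91 to 2.58). All APAP, TAA, CCl4, GAL and ConA livers lay below that range, at up to 1.45, 1.63, 1.47, 1.72 and 0.70. The other members differed from each other in this ratio. Folr2, at 0.30 ± 0.23 in vehicle mice (lowest -0.06), lay below the vehicle range in every liver of all compounds but APAP. So did Adgre1 and Siglec1 in TAA and ConA and Csf1r in CCl4 and ConA. Cd5l, at 1.65 ± 0.26 in vehicle mice, was 1.99 ± 0.03 in GAL, 1.61 ± 0.20 in CCl4 and 1.5 ± 0.19 in TAA, and ConA was the only group with every mouse below the vehicle range (-0.88 ± 0.36). Timd4, at -2.18 ± 0.17 in vehicle mice, was -2.18 ± 0.05 in GAL and -2.85 ± 0.26 in TAA, -2.83 ± 0.25 in APAP and -2.81 ± 0.42 in ConA. Cd163, at -2.10 ± 0.37 in vehicle mice, was -0.97 ± 0.34 in ANIT and -0.96 ± 0.31 in MDA. Marco, at -1.10 ± 0.56 in vehicle mice, had means of 0.48 to 1.71 with all compounds but ConA (-1.33 ± 0.46).

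**Figure D5:**
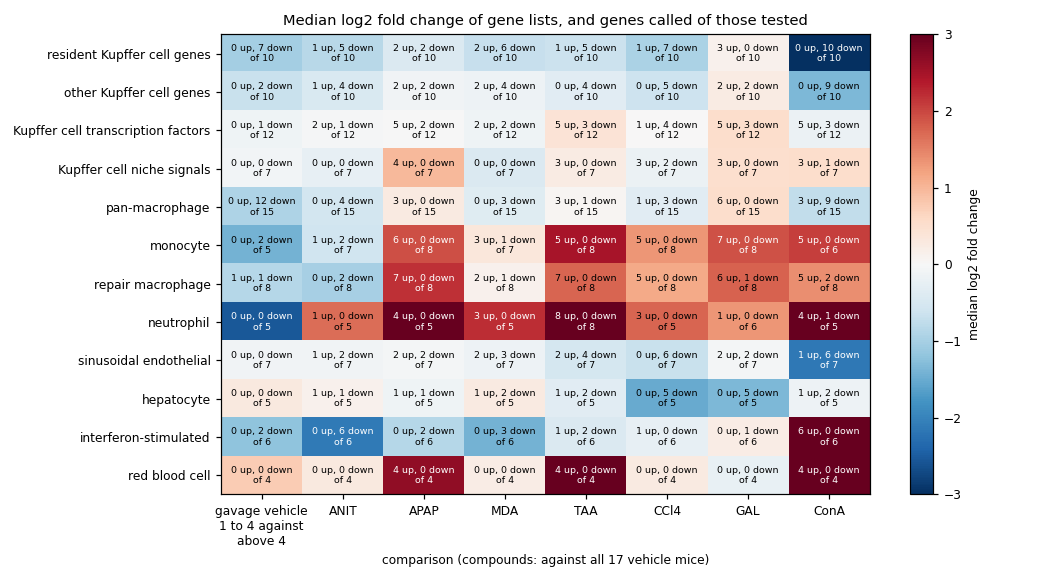
Median log2 fold change of 12 gene lists (rows) in vehicle mice 1 to 4 against higher numbers and under each compound against all 17 vehicle mice (columns), with the genes called higher and lower of those tested. The Kupffer cell list is lowest under ConA (median -3.32, 10 of 10 lower), where the interferon-stimulated list has a median of 5.63.

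Monocyte and repair macrophage genes rose with APAP, TAA, CCl4, GAL and ConA. Monocyte genes rose in APAP (6 of 8 tested), TAA (5 of 8), CCl4 (5 of 8), GAL (7 of 8) and ConA (5 of 6), with F13a1 at 3.75 in APAP, 5.00 in TAA, 2.63 in CCl4 and 2.83 in GAL. MDA raised 3 and lowered 1 of 7, and ANIT raised 1 and lowered 2. The list of macrophages seen in tissue repair, which holds Trem2, Gpnmb and Mmp12, was raised in 7 of 8 genes by APAP and by TAA, in 6 by GAL and in 5 by CCl4 and by ConA. Trem2, a lipid-sensing receptor gene, rose by 2.67 with APAP and, as was noticed after its values were seen, fell by 2.21 with ConA. ANIT raised 0 of the 8 and lowered 2. The monocyte list summed to 38 to 121 CPM in APAP, 59.4 to 121 in TAA, 12.2 to 97.7 in CCl4, 68.1 to 124 in GAL and 59.9 to 122 in ConA, against 10.2 to 62.4 in vehicle mice. Marco is also made by macrophages other than Kupffer cells, and the part of such cells in its level was not tested. Of the peritoneal macrophage list only Gata6 and Prg4 were tested. Both rose with ANIT, APAP, MDA and ConA, and 1 rose with CCl4. With TAA and with GAL 1 rose and 1 fell (Prg4, -3.24 in GAL). The list summed to 103 to 226 CPM in ConA and 7.75 to 12.8 CPM in GAL, against 27.6 to 58.0 CPM in vehicle mice. Which cells made these transcripts was not tested.

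Other cell types moved with some compounds. Haemoglobin genes rose (4 of 4) in APAP (107 to 2344 CPM in sum), TAA (2957 to 5320 CPM) and ConA. Of the neutrophil genes tested, 8 of 8 rose with TAA, 4 of 5 with APAP and with ConA (where 1 fell) and 3 of 5 with MDA and with CCl4, while ANIT (1 of 5) and GAL (1 of 6) raised Retnlg alone. Their sum was 163 to 868 CPM in TAA and 129 to 291 CPM in ConA against 3.11 to 68.1 CPM in vehicle mice. In CCl4 and GAL, 5 of 5 hepatocyte genes fell, with sums of 16270.9 to 26039.2 CPM and 23055.8 to 30546.9 CPM against at least 41653 CPM. In CCl4, 6 of 7 sinusoidal endothelial genes also fell. With library totals for scaling, which moved the median of all genes by 0.83 in GAL and 0.53 in CCl4, 9 of the 10 members were called higher in GAL, as were 8345 of all 15255 genes tested (1758 lower). In CCl4 4 members were called, 1 higher and 3 lower, beside 7149 of all 14209 genes higher and 1736 lower. The part of these cell types in the members' values was not tested. Counts for small lists of other lineages follow. Beside them, 13.5% (ANIT) to 34.3% (ConA) of all genes were called higher and 14.5% (ANIT) to 33.7% (ConA) lower. Counts such as 1 of 3 or 1 of 4 with GAL or TAA lie near the shares of these compounds and are no result about a lineage. B cell genes fell with ANIT (2 of 3), MDA (2 of 2) and CCl4 (1 of 3) and rose with TAA (3 of 3) and GAL (1 of 3). T and NK cell genes fell with MDA (2 of 2), ANIT (1 of 2) and TAA (1 of 3) and rose with GAL (1 of 4). Of 5 stellate cell genes 4 fell with MDA, 2 fell and 1 rose with CCl4 and with ConA (led by Lrat, -3.03), 1 fell and 2 rose with TAA, 1 fell with ANIT, and 1 rose with APAP and with GAL. Of 4 cholangiocyte genes Sox9 rose with all 7 compounds (0.65 to 4.67), and ConA raised 3 and TAA and GAL 2 each, while Krt7 fell with ANIT (-1.73) and Krt19 with APAP (-0.72). Proliferation genes fell with ANIT and MDA (3 of 3 each), TAA and ConA (1 of 3 each) and rose with CCl4 (3 of 4) and APAP (1 of 3). Of the dendritic cell genes, 1 of 4 rose with TAA and 1 of 2 fell with CCl4.

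Over all 57 livers, 12231 genes whose mean reached 1 CPM were ranked by Pearson's r with the mean of the members' log2 levels. The points share compounds, controls and number ranges, so r is only a description. The complement genes C1qc (r = 0.949) and C1qa (0.942) were closest, followed by the prostaglandin synthase gene Ptgs1 (0.932), the properdin gene Cfp (0.929), Cd300c2 (0.923), Treml4 (0.921), Cd300ld (0.921), the integrin gene Itgal (0.909), Abi3 (0.898) and Gngt2 (0.896). Among the members themselves, Cd5l lay closest to the mean of the other 9 (0.954) and Marco farthest (0.45). Over the 17 vehicle mice alone Marco's r was 0.840. The closest non-member to Marco was the chemokine gene Ccl6 (0.853), and that to Cd163 was Mertk (0.895).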

How the data were processed

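Liver RNA of 57 mice was sequenced from single-end stranded mRNA libraries, per the labels' protocols. The authors deposited 1 table of estimated counts per gene, made with Salmon 1.6.0 and R 4.1.3 on GRCm39, per the submitters' processing notes. The annotation, the step from transcripts to genes and the use of strand are not given in the sources used here. The smallest positive estimate of a gene was lower in longer transcripts (rho of Spearman -0.944 over 4208 genes of 1 transcript, a description across genes), so the values look length-corrected and a read is worth less in a long gene than in a short one.

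Estimates were rounded to whole numbers, filtered with filterByExpr and fitted with edgeR 4.0.16 (TMM, quasi-likelihood F-test, R 4.3.3). P-values were adjusted over all genes tested by Benjamini-Hochberg, and an adjusted p under 0.05 was called. The SE is the log2 fold change divided by the square root of F. Library totals limit the counting error of low genes such as Cd163, Siglec1 and Timd4. DESeq2 1.42.0, library totals, no filter, a replicate block, number ranges and single mice left out were alternatives. The fit was tested on simulated counts. Promoters came from RefSeq. The 10 genes, the lists and the number ranges were chosen with earlier results of these data known. In other lists, at most the 3 genes with the lowest adjusted p per comparison are named, and any gene of the identity factor, niche and further Kupffer cell lists. Genes said to lead a list do so by adjusted p, not by the size of the change. Mouse numbers name different animals and were not used as pairs outside the replicate block. Corn oil controls were not analysed here.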

Additional observations from a re-analysis of the deposited data

Results flagged for a closer look

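In 3 of 70 sets of 1 gene in 1 group of 4 to 10 mice, 1 mouse stood apart from the others by Dixon's test, which chance does in about 1 of 20 sets. Cd163 in ConA mouse 12 was the highest of its group at 0.419 CPM. Cd5l in APAP mouse 1 was the lowest at 28.9 CPM. Marco in TAA mouse 1 was the lowest at 16.5 CPM. The TAA effect differed between mice numbered 1 to 4 and those above 4 by the interaction test in Cd5l, by 1.83 on the log2 scale, and in Siglec1, by 2.01.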

How the results depend on the processing

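Of the counts of members called, 167 stayed within 1.5 times and 42 moved further, and of the values of single genes 1810 kept their side of the threshold, 147 lost the call, 64 gained it and 19 changed sign with a call on at least 1 side. Among the 1810 are 141 values not called on either side that changed sign, 26 of them within mice 1 to 4. Within mice 1 to 4, against the gavage vehicle, ANIT called 3 members, APAP 1, MDA 3 and TAA 3. There, against all vehicle mice, ANIT called 3, APAP 1, MDA 3, TAA 3 and GAL 5. CCl4 has 1 treated mouse in this range and no count is given for it. Among numbers above 4, TAA against gavage vehicle called 8. With library totals CCl4 called 2 and GAL 7 against saline, and APAP 2, CCl4 4 and GAL 9 against all vehicle mice. ANIT against gavage vehicle called 4 without the filter and 4 with the number range as a covariate. DESeq2 called 2 members in the interaction for APAP, 1 for MDA and 7 for TAA, but its share of all genes called is not given here. The cause was not tested.

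Sign changes with a call on at least 1 side, within mice 1 to 4 and against both controls, were Siglec1 with ANIT (0.11) and TAA (0.38) and Cd5l with TAA (1.29). Against all vehicle mice Folr2 with APAP (0.11), Timd4 with TAA (0.40) and Marco with ConA (0.49) did so too. With the number range as a covariate, Cd5l with ANIT was 0.60 against either control, and Siglec1 was 0.12 against gavage and 0.13 against all vehicle mice. With library totals Clec4f with GAL was 0.73 against saline and 0.79 against all vehicle mice, where Cd163 was 0.75 and Folr2 0.78.

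With the mouse number as a replicate block, the count was 3 for ANIT, 1 for APAP, 2 for TAA and 1 for GAL against their route vehicle, and 3 for ANIT and 1 for APAP against all vehicle mice. Siglec1 with ANIT was 0.12 under this block against either control. In no comparison with 3 or more shared numbers did every same-numbered pair deviate together (r over 0.1), and the main fits did not pair the mice. The mean r reached 0.138 with TAA against gavage vehicle (4 pairs), so this check does not exclude structure shared by number. For CCl4 and ConA against their saline the block was not run, because only number 8 is shared.

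Leaving out single mice gave 3 to 5 members for ANIT, 2 to 4 for APAP, 5 to 7 for MDA, 5 to 6 for TAA, 1 to 6 for CCl4 and 1 to 3 for GAL against their route vehicle, and 10 throughout for ConA. Against all vehicle mice CCl4 gave 7 to 9, GAL 2 to 3 and ConA 10. The division of the gavage vehicle gave 4 to 7, the interactions 0 to 1 for APAP, 0 for MDA and 1 to 5 for TAA, and the comparisons of vehicles 0. Leaving out gavage-treated mice against all vehicle mice was not run. Depth limits Cd163 and Siglec1 under ConA, which rest on fewer than 10 estimated counts per mouse.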
